A study of Mus musculus with 12 samples.

Results

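The genes described here are 9 genes through which cells of the intestinal lining address the lymphocytes that live among them: Btnl1, Btnl2, Btnl4, Btnl6, Clec2h, Clec2e, H2-T3, Il15 and Tnfrsf14. They were taken from a list of butyrophilin-like genes, Clec2 genes and related ligands, and all 9 were among the 6429 genes for which the authors deposited comparisons of RNA polymerase II (Pol II) occupancy. The list was drawn up with results of these comparisons known, so the values of the members are given as a description, and their direction supports nothing by itself.

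Pol II was measured by chromatin immunoprecipitation and sequencing (ChIP-seq) in epithelium of the mouse duodenum. The labels list 12 samples, of which 9 are Pol II libraries, 3 in each of 3 groups, and 3 are inputs. WT villus and WT crypt came from wild-type mice given only the vehicle, 10% ethanol in corn oil, and their tissue was held in EDTA for 35 minutes. The last group is villus of mice labelled as Hnf4 alpha and gamma double knockouts (DKO), given tamoxifen at 50 mg/kg on each of 2 days, with 25 minutes in EDTA. Genotype, tamoxifen and EDTA time cannot be told apart between these groups, and the mice are labelled adult, and the alleles, the driver of recombination and the number of mice per library are not given in the sources used here. No crypt was taken from the knockout mice.

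The butyrophilin-like proteins are relatives of the B7 costimulatory family on the surface of enterocytes. Btnl1 pairs with Btnl6, and such pairs select and maintain the gamma delta T cells of the gut epithelium. Clec2 proteins are C-type lectin-like ligands for NKR-P1 receptors, whose Klrb1 genes lie among the Clec2 genes. H2-T3 encodes the thymus leukaemia antigen, a nonclassical class I molecule that binds CD8 alpha homodimers on intraepithelial lymphocytes, Il15 encodes a cytokine that keeps these lymphocytes alive, and Tnfrsf14 encodes HVEM, a receptor that binds CD160, BTLA and LIGHT. HNF4A and HNF4G are nuclear receptors of the enterocyte, which bind DNA as dimers at sites that contain CAAAGTCC or close variants.

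The sequences just before the start sites are shown first, since the genotype comparison concerns HNF4 and these letters can be read in them. RefSeq promoters of build GRCm38.p6 were available for 8 of the 9 genes, from 250 bases before to 50 bases after the start. Spacings between starts in the authors' windows, whose build is mm9 per the submitters' processing notes, equalled those in GRCm38.p6 for all 5 pairs compared, for example 22310 bp from Btnl2 to Btnl1 and 438518 bp from Clec2h to Clec2e. Each line below gives the 100 bases that end just before the start, 5′ to 3′ on the gene's strand. Capitals mark CAAAGTCC, or the same 8 letters with another first base. The form with another first base was chosen after the promoters were seen. With any first base, the letters were found in 4.20% of all RefSeq promoters. Tnfrsf14, which has no match of either form in these 100 bases, is not shown. The lines of Btnl4 and Btnl6 are shown, although they hold no match either. The first 3 lines hold CAAAGTCC itself. The starts used for Btnl4 and Btnl6 lie 1491 and 1424 bp inside these genes, so their lines do not show the letters before the outermost annotated starts.
Btnl1 (chr17:34377032-34377131, plus strand): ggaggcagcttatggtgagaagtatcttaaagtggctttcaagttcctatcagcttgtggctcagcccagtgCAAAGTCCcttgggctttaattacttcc
Btnl2 (chr17:34354722-34354821, plus strand): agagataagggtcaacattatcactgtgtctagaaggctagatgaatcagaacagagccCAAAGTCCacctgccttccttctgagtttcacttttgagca
H2-T3 (chr17:36190152-36190251, minus strand): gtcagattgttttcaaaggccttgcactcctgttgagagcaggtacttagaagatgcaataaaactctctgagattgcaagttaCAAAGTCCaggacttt
Clec2h (chr6:128662285-128662384, plus strand): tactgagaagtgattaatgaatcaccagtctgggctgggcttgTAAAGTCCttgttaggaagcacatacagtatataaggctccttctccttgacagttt
Clec2e (chr6:129100904-129101003, minus strand): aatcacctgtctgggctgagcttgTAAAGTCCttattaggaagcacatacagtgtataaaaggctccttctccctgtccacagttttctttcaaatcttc
Btnl4 (chr17:34475938-34476037, minus strand): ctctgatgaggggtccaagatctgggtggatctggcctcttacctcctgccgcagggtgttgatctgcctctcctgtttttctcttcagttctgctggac
Btnl6 (chr17:34517353-34517452, minus strand): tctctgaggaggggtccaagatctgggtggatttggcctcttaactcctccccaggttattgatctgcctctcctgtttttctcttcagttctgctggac

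CAAAGTCC, searched on both strands of the 300-base windows, was found in 3 of the 8 promoters, at Btnl1, Btnl2 and H2-T3. At Btnl4, Btnl6 and Tnfrsf14 the windows lie inside the annotated genes. The letters before the outermost annotated starts of these genes were not searched. It was found in 1.42% of all 32851 RefSeq promoters and in 1.76% of the promoters of genes in the authors' tables. In each of the 3 it lay on the gene's strand and close to the start, beginning 28 bases before it at Btnl1, 41 bases before it at Btnl2 and 16 bases before it at H2-T3. The shorter CAAAGTC, which every CAAAGTCC contains, was found in the same 3 promoters and in 4.44% of all promoters.

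The other searched motifs split the genes differently. The interferon response letters GAAANNGAA were found at Clec2h, Clec2e and Tnfrsf14, against 8.56% of all promoters, and the CDX letters TTTATNG at Clec2h, Clec2e and H2-T3, against 10.9%. The promoters of Clec2h and Clec2e are 93.3% identical where aligned, so their matches are not independent of each other. The GATA letters AGATAA were found at Btnl2 alone among the 8, against 11.2%, and the TATA letters TATAAA at Clec2e and H2-T3, against 13.6%. Among promoters of genes in the authors' tables, the interferon response, CDX, GATA and TATA letters were found in 6.83%, 7.36%, 6.30% and 8.12%. At Clec2e the TATA letters lay on the gene's strand, beginning 46 bases before the start. At H2-T3 they lay on the opposite strand and across the start itself. Before the start, Clec2e alone held them, against 12.4% of all promoters. These are matches of letters, and no binding was measured at them here.

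Clec2h and Clec2e have closely related promoters, with 250 identical bases among 268 aligned (93.3%). The windows of Btnl4 and Btnl6, which lie inside these genes, are as alike, with 272 identical bases among 299 (91.0%). Btnl1 and Btnl2 share 160 of 280 (57.1%). How reads were divided within the pairs Btnl4 with Btnl6 and Clec2h with Clec2e is therefore uncertain. The window files were counted with a minimum mapping quality of 30, per the file headers, and whether the comparison tables were is not stated. H2-T3 shared 155 of 263 bases (58.9%) with Gm8909, the class I relative compared. The pseudogene Btnl5-ps and the other class I genes near H2-T3 were not compared. How reads were divided among these relatives is therefore unknown too. No window of the 9 genes overlapped a window of another gene.

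The tables hold no value per library. The level of each group was therefore rebuilt from the mean over libraries and the deposited log2 fold changes, with the groups taken as equally large, and is given in counts divided by size factors. Levels are compared within a gene only, since the window behind them is not stated. A log2 fold change is followed by its standard error (SE), and a gene is called where the authors' deposited table has an adjusted p under 0.05. In bulk tissue, fewer cells of a type and less Pol II per cell cannot be told apart.

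The targeted genes were read first as a check of the labels. In the authors' deposited table Hnf4a and Hnf4g had more signal in the villus labelled DKO, with log2 fold changes of WT villus over labelled-DKO villus of -0.54 ± 0.14 (DESeq2 adjusted p 4.84e-04) and -1.45 ± 0.22 (DESeq2 adjusted p 7.81e-10). Which part of each gene was deleted, and whether the counted window covers it, is not given in the sources used here, so these values do not check the label, and every direction between genotypes rests on the tables' names.

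Across the 9 genes, 8 were called higher in WT villus than in crypt, where 18.6% of all 6429 genes were, and none was called lower, where 18.8% were. All 9 were called higher in WT villus than in labelled-DKO villus, where 22.4% of all genes were. The median log2 fold change of the 9 genes was 0.78 for villus over crypt and 1.78 for WT over labelled-DKO villus, against -0.04 and -0.08 over all genes. Nothing is read from these counts, since the genes were listed with the comparisons known. The spread within the list is wide, from Tnfrsf14, which was not called between villus and crypt, to Btnl6, at rank 3 of all genes for the change of WT villus over labelled-DKO villus.

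**Figure D1:**
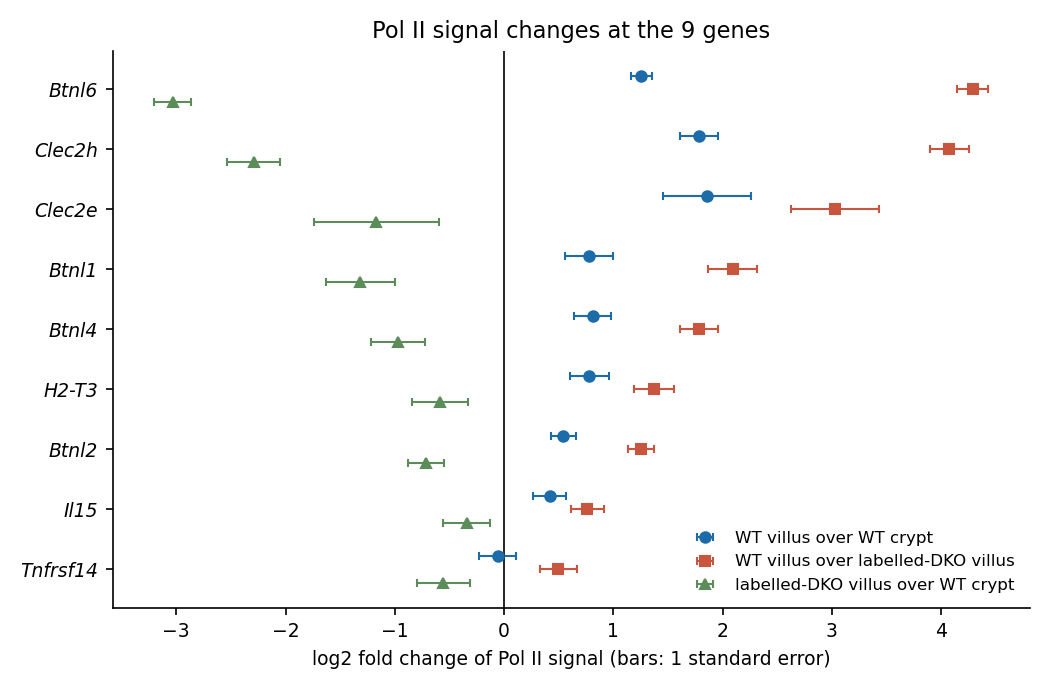
Log2 fold changes of Pol II signal at the 9 genes (horizontal axis, bars of 1 SE) for WT villus over WT crypt (circles), WT over labelled-DKO villus (squares) and labelled-DKO villus over WT crypt (triangles, with the largest possible SE). All squares lie right of 0, all triangles lie left of it, and Btnl6 has the widest separation, from 4.29 to -3.03.

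Btnl6 encodes the partner of Btnl1 on enterocytes. Its rebuilt level was 352 in WT villus, 147 in crypt and 18.0 in labelled-DKO villus. The labelled-DKO level is thus 5.12% of that in WT villus and 12.2% of that in crypt. The authors' deposited table gave a log2 fold change of villus over crypt of 1.26 ± 0.09, a 2.39-fold difference. For WT over labelled-DKO villus the authors' deposited table gave 4.29 ± 0.14, a 19.5-fold difference with a DESeq2 adjusted p of 1e-200.

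Btnl1, the partner shared by the butyrophilin-like pairs, had levels of 184 in WT villus, 108 in crypt and 43.3 in labelled-DKO villus. In the authors' deposited tables its log2 fold changes were 0.78 ± 0.22 for villus over crypt and 2.09 ± 0.22 for WT over labelled-DKO villus. Btnl4, which can also pair with Btnl1, had levels of 213, 121 and 61.9 in the same order. Its log2 fold changes in the authors' deposited tables were 0.81 ± 0.17 and 1.78 ± 0.18. Between the genotypes Btnl1 and Btnl4 differed from each other by 0.31 on the log2 scale, 1.09 times the SE of the gap, so their changes were not told apart.

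Btnl2 encodes a butyrophilin-like protein known as an inhibitor of T cell activation. Its levels were 138 in WT villus, 94.7 in crypt and 57.8 in labelled-DKO villus. The authors' deposited tables gave log2 fold changes of 0.54 ± 0.11 for villus over crypt and 1.25 ± 0.12 for WT over labelled-DKO villus, the smallest of the 4 butyrophilin-like genes in both. The 4 genes thus kept 1 order of groups, WT villus above crypt above labelled-DKO villus, with fold differences between the genotypes from 2.38 at Btnl2 to 19.5 at Btnl6. Of the 9 butyrophilin genes listed, the other 5, Btnl7-ps, Btnl9, Btnl10, Btn1a1 and Btn2a2, were not among the genes tested.

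Clec2h and Clec2e encode the lectin-like ligands Clr-f and Clr-a. The level of Clec2h was 2122 in WT villus, 616 in crypt and 126 in labelled-DKO villus, so that the labelled-DKO level was 5.93% of the WT one. In the authors' deposited tables its log2 fold changes were 1.78 ± 0.17 for villus over crypt and 4.08 ± 0.18 for WT over labelled-DKO villus. The level of Clec2e was 1199 in WT villus, 330.3 in crypt and 147 in labelled-DKO villus.

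Clec2e had log2 fold changes of 1.86 ± 0.40 and 3.03 ± 0.40 in the authors' deposited tables, with the largest SE of the 9 genes in both. The changes of Clec2h and Clec2e between villus and crypt differed by 0.08, 0.18 times the SE of the gap. Between the genotypes they differed by 1.05, 2.37 times that SE. Clec2d, a ligand of inhibitory NKR-P1 receptors, was the other Clec2 gene in the tables. The authors' deposited tables show that it rose from crypt to villus by 0.63 ± 0.17 (DESeq2 adjusted p 0.00124), while its change of WT villus over labelled-DKO villus was 0.11 ± 0.17 (DESeq2 adjusted p 0.594).

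H2-T3 had levels of 145 in WT villus, 84.4 in crypt and 56.2 in labelled-DKO villus. Its log2 fold changes in the authors' deposited tables were 0.78 ± 0.18 for villus over crypt and 1.37 ± 0.18 for WT over labelled-DKO villus. H2-T23, which encodes the nonclassical class I molecule Qa-1, showed similar values there, 0.84 ± 0.16 and 1.56 ± 0.16, and was called in both. The other 10 genes listed as nonclassical class I or NKG2D ligands were not among the genes tested.

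Il15 had levels of 572 in WT villus, 429 in crypt and 338 in labelled-DKO villus, in the same order of groups as the genes above but within a narrower range. In the authors' deposited tables its log2 fold changes were 0.42 ± 0.15 (DESeq2 adjusted p 0.0194) for villus over crypt and 0.76 ± 0.15 (DESeq2 adjusted p 3.01e-06) for WT over labelled-DKO villus. Il15ra, which encodes the receptor chain that presents interleukin 15 to lymphocytes, was not called in either of the authors' deposited tables, with -0.21 ± 0.10 and 0.04 ± 0.10. Il18 and Il33, cytokines of the same list, were not called either, and Il7, Tslp, Il25 and Tgfb1 were not among the genes tested.

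Tnfrsf14 encodes the receptor HVEM. Its levels were 87.9 in WT villus, 91.6 in crypt and 62.3 in labelled-DKO villus. The authors' deposited table gave -0.06 ± 0.17 (DESeq2 adjusted p 0.815) for villus over crypt, so that Tnfrsf14 was the single gene of the 9 not called there. For WT over labelled-DKO villus the authors' deposited table gave 0.50 ± 0.17 (DESeq2 adjusted p 0.00896).

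**Figure D2:**
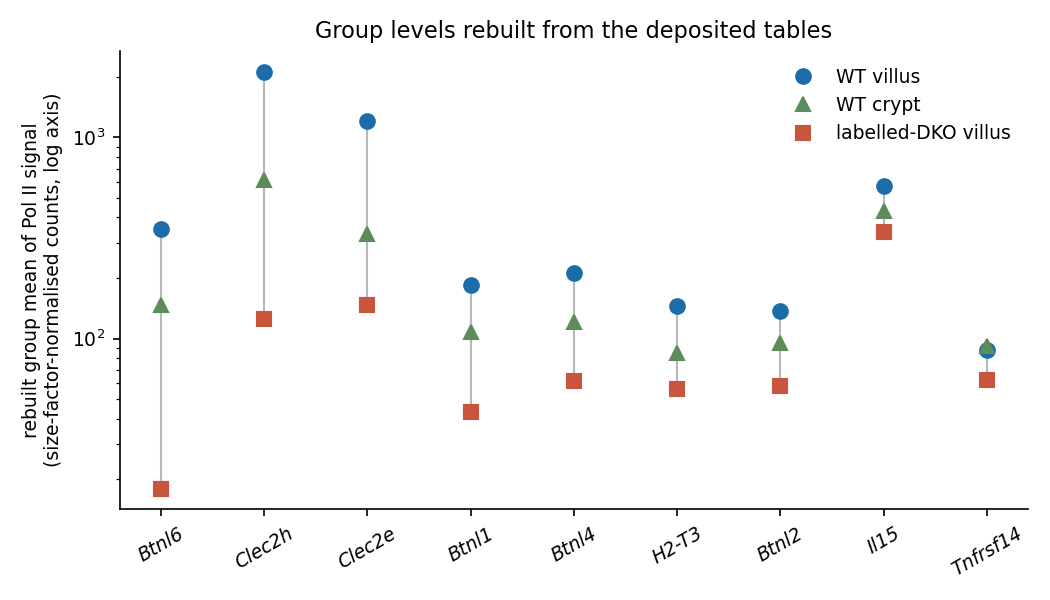
Rebuilt group means of Pol II signal (vertical log axis, size-factor-normalised counts) for each of the 9 genes in WT villus (circles), WT crypt (triangles) and labelled-DKO villus (squares). The labelled-DKO point is the lowest for every gene, and crypt lies between the others for all genes except Tnfrsf14, whose crypt level of 91.6 is beside the 87.9 of WT villus.

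Ordered by the change between the genotypes, the 9 genes ran Btnl6, Clec2h, Clec2e, Btnl1, Btnl4, H2-T3, Btnl2, Il15 and Tnfrsf14. Of the 8 gaps between neighbours in this order, 3 were more than 2 times their SE, those from Clec2h to Clec2e, from Clec2e to Btnl1 and from Btnl2 to Il15. The other neighbours differed by less. Between villus and crypt the order was Clec2e, Clec2h, Btnl6, Btnl4, H2-T3, Btnl1, Btnl2, Il15 and Tnfrsf14, and again 3 of the 8 gaps were more than 2 times their SE.

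Labelled-DKO villus was then placed against WT crypt, to ask whether the signal there was at the crypt level or below it. These groups differ in part of the epithelium, genotype, tamoxifen and EDTA time at once. The log2 fold change was formed as the difference of those in the authors' deposited tables, with the largest SE it can have, and adjusted p-values were computed over all 6429 genes with the Benjamini-Hochberg method. All 9 genes had a negative value, as did 49.7% of all genes. With this SE, 5 of the 9 were called lower in labelled-DKO villus than in crypt, where 7.19% of all genes were. These 5 were Btnl6 at -3.03 ± 0.17, Clec2h at -2.29 ± 0.25, Btnl1 at -1.31 ± 0.31, Btnl4 at -0.97 ± 0.25 and Btnl2 at -0.71 ± 0.16.

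Btnl6 and Clec2h stood at ranks 3 and 7 among all 6429 genes for the lowest value, with 8.18-fold and 4.90-fold less signal in labelled-DKO villus than in crypt. The remaining 4 genes did not pass, Clec2e at -1.17 ± 0.57 (adjusted p from the authors' DESeq2 values 0.178), H2-T3 at -0.59 ± 0.26 (0.118), Tnfrsf14 at -0.56 ± 0.24 (0.108) and Il15 at -0.34 ± 0.21 (0.335). With the SE rebuilt from the shared fit, which is smaller, 8 of the 9 were called, where 14.3% of all genes were, and Il15 was the exception. All 4 butyrophilin-like genes were thus called lower in labelled-DKO villus than in crypt with either SE. Under stricter and looser rules the shares of all genes called higher in WT villus than in crypt were 14.6% with an adjusted p under 0.01, 3.52% with a log2 limit of 1, 3.45% in a test against changes up to 0.5, 21.1% after centring and 23.8% with a mean signal of at least 100. For WT villus above labelled-DKO villus the same rules called 18.8%, 6.53%, 7.53%, 26.6% and 26.5% of all genes. For labelled-DKO villus below crypt they called 4.76%, 1.66%, 0.902%, 7.3% and 9.42%. Of the 9 genes these rules called 7, 3, 3, 8 and 6 for villus above crypt, 9, 7, 7, 9 and 6 for WT villus above labelled-DKO villus, and 5, 3, 2, 5 and 4 for labelled-DKO villus below crypt, where only 6 of the 9 reached the minimum signal.

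**Figure D3:**
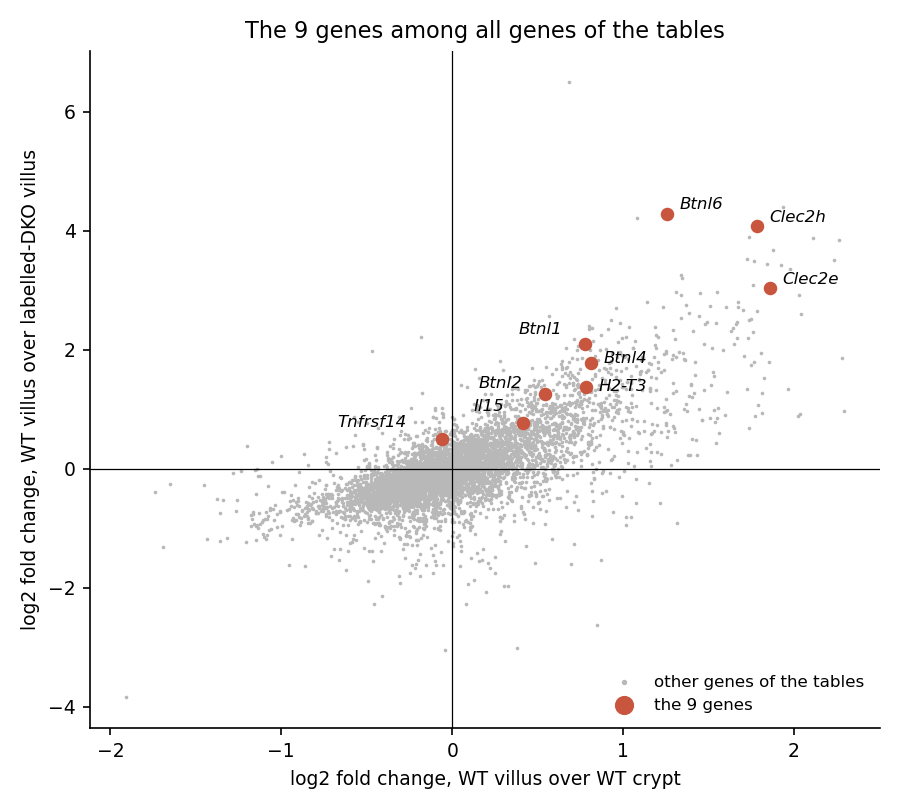
Log2 fold changes of WT villus over WT crypt (horizontal) and of WT villus over labelled-DKO villus (vertical) for the 6429 genes of the authors' deposited tables, with the 9 genes in red. Both axes use the same WT villus libraries, so the slant of the cloud is no result, and Btnl6, Clec2h and Clec2e lie toward the upper right at 4.29, 4.08 and 3.03 on the vertical axis.

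The genes nearest to each member were found by the straight-line distance between pairs of log2 fold changes in the authors' deposited tables, 2 values per gene, among all 6429 genes. Those nearest to Btnl6 were St3gal4, a sialyltransferase, at a distance of 0.20, then Clec2h at 0.57 and Gm8909 at 0.62. The gene nearest to Clec2h was Gm8909 at 0.19, followed by Ada, adenosine deaminase, at 0.35 and Apoa4, an apolipoprotein of chylomicrons, at 0.39. Clec2e was nearest to H2-K1, a classical class I gene, at 0.11, then to Enpp7 at 0.20 and Abcc2 at 0.30. Few genes lie in this corner of the plane, so the distances are large there.

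Closer matches were found for the other genes, where the plane is denser. Btnl1 was nearest to 4933431E20Rik, Trim31 and Igsf9, at 0.02 to 0.07. Btnl2 was nearest to Sult1b1, Mall and Klc4, at 0.01 to 0.03, and Btnl4 to Tm4sf5, Efna1 and Rxfp4, at 0.06 to 0.10. H2-T3 was nearest to Ms4a10, Gm5475 and Nat8, at 0.04 to 0.06. Il15 was nearest to Galt, Ank3 and D330023K18Rik, and Tnfrsf14 to Gfer, Rtkn and Ssx2ip, all within 0.02. The distances take no account of the SEs of the values. Both SEs were 0.22 at Btnl1 and 0.15 at Il15, larger than the distances given. Which genes lie nearest is therefore uncertain.

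The 4 butyrophilin-like genes lie together on chromosome 17, in mm9 with promoter windows at chr17:34491667-34492068 for Btnl2, chr17:34513977-34514378 for Btnl1, chr17:34612581-34612982 for Btnl4 and chr17:34653996-34654397 for Btnl6. Within 200 kb of them lay 25 other genes with windows matched to a RefSeq symbol, and 14 of these were in the tables. Of these 14 genes 5 were called higher in WT villus than in labelled-DKO villus and none lower, where 22.4% and 29.5% of all genes were. The pseudogene Btnl5-ps, between Btnl4 and Btnl6, had 1.31 ± 0.22 for villus over crypt and 2.97 ± 0.23 for WT over labelled-DKO villus in the authors' deposited tables.

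On the Btnl2 side, 3 class II genes, whose products present peptides to CD4 T cells, had the same direction. In the authors' deposited tables the changes of WT villus over labelled-DKO villus were 2.24 ± 0.15 at H2-Ab1, 1.85 ± 0.14 at H2-Aa and 0.99 ± 0.13 at H2-Eb1. Farther out, Tap2, Psmb8, Tap1 and Psmb9, which serve class I peptide loading, were not called, with values from -0.21 to 0.20. Past Btnl6, Pbx2, Ager, Agpat1, Egfl8 and Atf6b were not called, and Rnf5 was, at 0.49 ± 0.15.

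H2-T3 had a promoter window at chr17:36326795-36327196 in mm9, 1835 kb from Btnl2. Of 12 other genes of the tables within 200 kb, 9 were called higher in WT villus than in labelled-DKO villus and none lower, beside the same 22.4% and 29.5% of all genes. All 9 lay on 1 side of H2-T3. They included Gm8909 at 3.90 ± 0.22, H2-Bl at 3.49 ± 0.18, Gm10499 at 2.97 ± 0.24 and 2410017I17Rik at 2.12 ± 0.15 in the authors' deposited table, all above the 1.37 ± 0.18 of H2-T3. Gnl1 at the far end, and Rpp21 and Trim39 on the other side, were not called, with 0.17, -0.25 and 0.01.

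**Figure D4:**
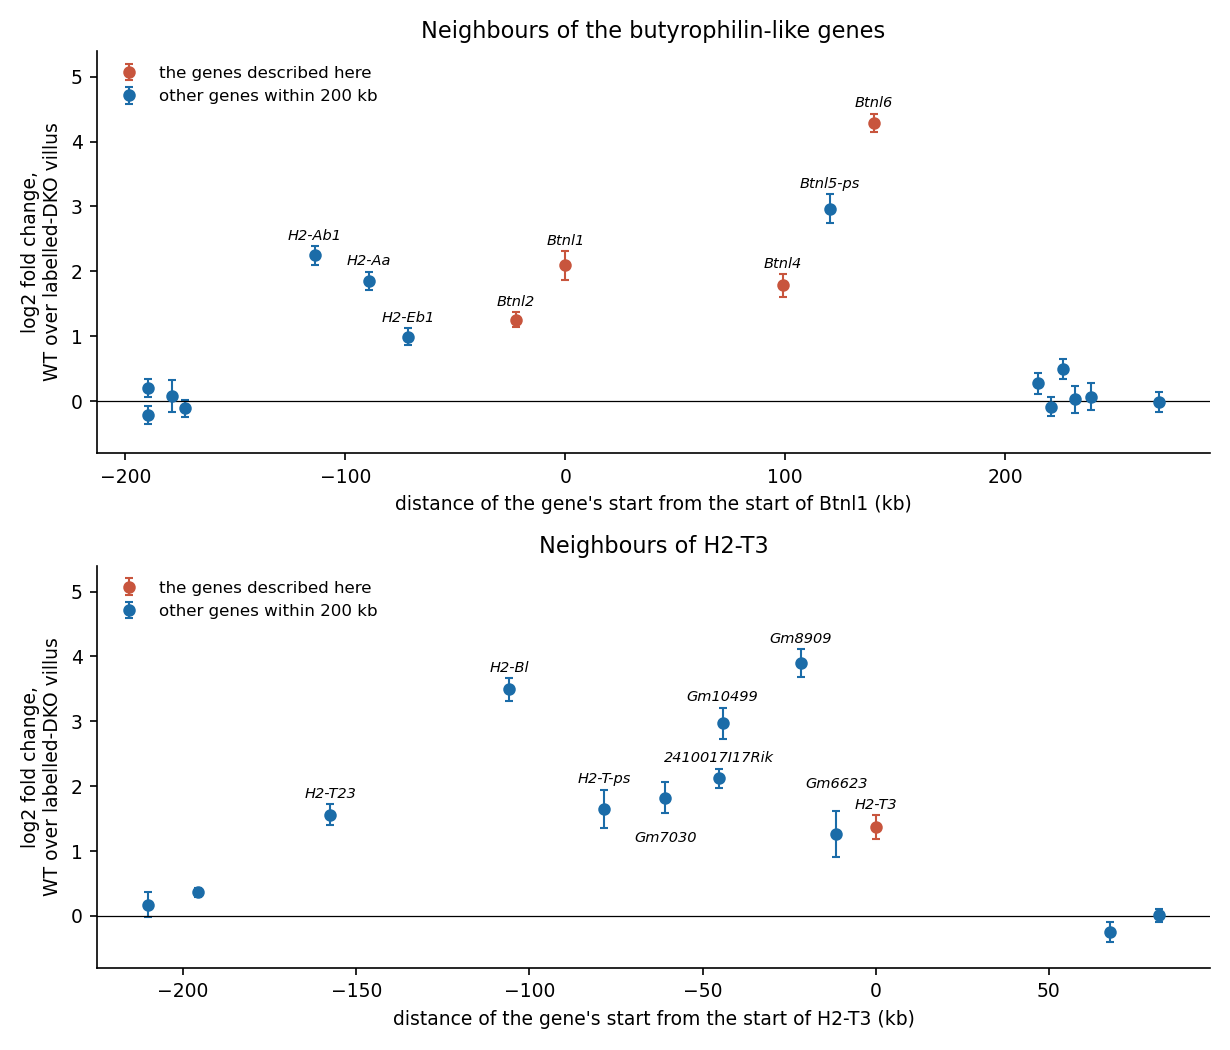
Log2 fold change of WT villus over labelled-DKO villus (vertical, bars of 1 SE) against the distance of each gene's start from that of Btnl1 (upper panel) or H2-T3 (lower panel), in kb, for genes of the tables within 200 kb of a described gene. Names are given above a change of 0.9. In the upper panel the named genes lie between H2-Ab1 and Btnl6, and the unnamed ones at both ends have values from -0.21 to 0.49.

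Clec2h and Clec2e lie 439 kb apart on chromosome 6, with mm9 promoter windows at chr6:128612303-128612704 and chr6:129050620-129051021. Of 19 other genes with windows matched to a RefSeq symbol within 200 kb of either, only 2, Clec2d and 2310001H17Rik, were in the tables. The Klrb1 receptor genes of the stretch, which lymphocytes express, were not among the genes tested. Tnfrsf14, at chr4:154301885-154302286, had 5 tested neighbours, of which Prxl2b at 1.44 ± 0.16 and Mmel1 at 0.74 ± 0.11 were called higher in WT villus than in labelled-DKO villus in the authors' deposited table. Both changes were larger than the 0.50 of Tnfrsf14. Il15, with its promoter window at chr8:84926184-84926585, had no other gene with a window matched to a RefSeq symbol within 200 kb.

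Other genes of the dialogue between epithelium and lymphocytes, and listed regulators of the members, were read from lists of 65 genes. Of the 65, 32 were in the tables and 23 were not among the 9. The regulators are transcription factors, which made up 9 of the 23 and include the targeted Hnf4a and Hnf4g. Of these 23 genes, WT villus was called above crypt at 8 and below it at 1, where 18.6% and 18.8% of all genes were. Against labelled-DKO villus it was called above at 8 and below at 6, where 22.4% and 29.5% of all genes were. Labelled-DKO villus was called below crypt at 3, where 7.19% of all genes were. It was called above crypt at 6, where 412 of all 6429 genes were. The medians of the 23 genes were 0.15 for villus over crypt and for WT over labelled-DKO villus. The 9 regulators account for 2 of the 8 genes called above labelled-DKO villus and for 4 of the 6 called below it. They also account for 4 of the 6 genes called above crypt in labelled-DKO villus and for 1 of the 3 called below.

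Among chemokine and adhesion genes, Ccl25, whose product draws lymphocytes to the small intestine, was called between the genotypes and not between villus and crypt. The authors' deposited tables gave 0.28 ± 0.15 (DESeq2 adjusted p 0.118) for villus over crypt and 1.80 ± 0.15 (DESeq2 adjusted p 1.19e-30) for WT over labelled-DKO villus. Ccl25 was lower by 1.52 ± 0.21 in labelled-DKO villus than in WT crypt, with an adjusted p from the authors' DESeq2 values of 7.11e-11. Cx3cl1 was higher in WT villus in both of the authors' deposited tables, at 0.96 ± 0.15 and 0.95 ± 0.15. Cxcl16, a chemokine of the villus, rose from crypt to villus by 0.48 ± 0.12 but was higher in labelled-DKO villus, with -0.29 ± 0.11. Cdh1, which encodes the E-cadherin that binds the integrin of intraepithelial lymphocytes, was also higher in labelled-DKO villus, at -0.60 ± 0.19.

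In the TNF family, Ltbr, Tnfsf13 and Tnfsf10 were called higher in WT villus than in labelled-DKO villus in the authors' deposited table, at 0.70 ± 0.15, 0.64 ± 0.14 and 0.44 ± 0.14. Tnfsf13 was called between villus and crypt too, at 0.50 ± 0.14. Cd160, a lymphocyte gene whose product binds HVEM, was not called in either of the authors' deposited tables, at -0.15 ± 0.11 and -0.18 ± 0.11.

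Transcription factors listed as regulators of such genes had values of both signs. Per the authors' deposited tables, Gata4 and Ahr were higher in labelled-DKO villus, at -0.92 ± 0.08 and -0.91 ± 0.10, and neither was called between villus and crypt. Cdx2 rose from crypt to villus by 0.40 ± 0.09 and was higher in WT villus than in labelled-DKO villus by 0.59 ± 0.09, and Irf1 had 0.95 ± 0.17 and 0.66 ± 0.17. Cdx1 was lower in villus than crypt, at -0.51 ± 0.16, and was not called between the genotypes. Irf2 was not called in either of the authors' deposited tables.

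**Figure D5:**
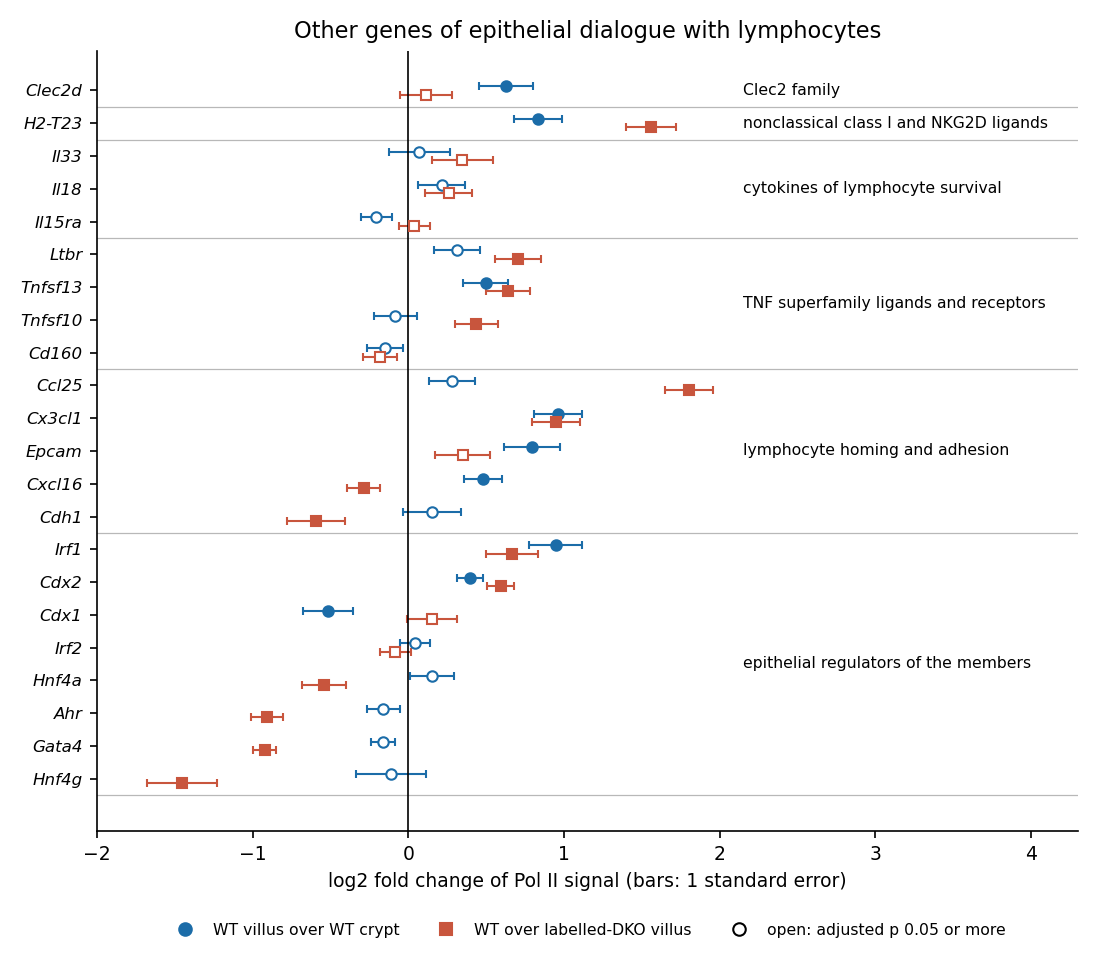
Log2 fold changes (horizontal, bars of 1 SE) of the other listed genes reported here for WT villus over crypt (circles) and WT over labelled-DKO villus (squares), grouped by list, with open symbols where the adjusted p was 0.05 or more. Squares lie on both sides of 0, from Ccl25 at 1.80 to Hnf4g at -1.45.

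The makeup of the samples was read from marker lists. Of 12 enterocyte genes 11 were in the tables. WT villus was called above both crypt and labelled-DKO villus at all 11, where 18.6% and 22.4% of all genes were. The medians of the 11 were 1.55 and 2.44. Their summed level was 16751 in WT villus, 6246 in crypt and 4347 in labelled-DKO villus, a sum in which genes of high signal weigh most. Against crypt, 3 of the 11 were called lower in labelled-DKO villus, where 7.19% of all genes were. Of the 11, 1 was called higher, Fabp1 at 0.94 ± 0.26, where 412 of all 6429 genes were. Of 17 intraepithelial lymphocyte markers 3 were in the tables, Cd7, Gzma and Gzmb, with summed levels of 161, 154 and 207. Of these Cd7 was called between the genotypes, at -0.77 ± 0.26 in the authors' deposited table. The defining markers Cd3e, Cd8a and Itgae were not among the genes tested, nor were the 8 other immune and 6 mesenchyme markers. Of 10 crypt stem and dividing cell markers Axin2 and Pcna were in the tables, and both were called lower in villus than crypt. In the authors' deposited table Pcna was higher in labelled-DKO villus, at -0.62 ± 0.20, and Axin2 was not called, at -0.38 ± 0.17. Of 8 secretory cell markers 6 were in the tables. Of these, 2 were called higher and 2 lower in villus than crypt, where 18.6% and 18.8% of all genes were. The authors' deposited table had Agr2 and Spink4 higher in labelled-DKO villus, at -1.06 ± 0.13 and -0.81 ± 0.10. Muc2, Tff3, Chga and Spdef were not called between the genotypes, at 0.15 ± 0.17, 0.17 ± 0.18, 0.12 ± 0.14 and -0.26 ± 0.14. The median of the 6 between the genotypes was -0.07. The part of cell makeup in the values of the 9 genes was not tested.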

How the data were processed

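The authors deposited 2 tables of comparisons in the format of DESeq2 results, per the file headers, and the submitters' processing notes name DESeq2 1.36.0, Bowtie2 2.2.6 and build mm9. Per gene, the authors deposited the mean signal over libraries after size-factor scaling and the log2 fold change with its standard error. They also deposited the Wald score, the p-value and the adjusted p, per the file headers. Neither the gene filter nor the counted window is stated there. The mean signal ran from 13.1 to 6634, and library depths are unknown. The labels name 3 Pol II libraries per group, and nothing says that they came from separate mice, so p-values may measure technical spread.

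The authors deposited 2 further files of windows, counted with featureCounts 2.0.3 per the file headers. Their 18 columns of per-library counts have no names, could be matched to no sample and were not used. Window positions and lengths (other values) were used, and 42877 of 44308 promoter windows matched a RefSeq symbol. Planned edgeR and DESeq2 tests of windows were therefore not run.

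Signs follow the tables' names. Values for labelled-DKO villus over crypt, group levels and adjusted p-values were computed with numpy 2.4.6 and scipy 1.17.1, promoter identity with Biopython 1.88. On simulated means of 6429 genes, the largest standard error recovered 92% of 200 genes changed by 1 (log2) between labelled-DKO villus and crypt, with 0 unchanged genes called, and the rebuilt one 99% with 7. The simulated noise was normal, of known size, and had the form that the rebuilt error assumes. Its extra spread was the same for all genes, so these shares do not measure performance on the deposited tables. The members, lists and rules were chosen with earlier results of these data known. Named were the members, listed genes in the tables, the 3 nearest genes to each member, neighbours within 200 kb, and Hnf4a and Hnf4g, except 1 listed gene that enters the counts and is not reported here. Alternatives were an adjusted p under 0.01, a log2 limit of 1, a test against changes up to 0.5, centring on the median, and a mean signal of at least 100.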

Additional observations from a re-analysis of the deposited data

How the results depend on the processing

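No paired analysis was possible because values per library are lacking in the tables and the count columns carry no replicate numbers. For the same reason no library could be left out, and the planned tests of window counts (edgeR, DESeq2, size factors, filters) were not run. Of 135 recomputed values of single members, 112 kept direction and side of the threshold, 20 no longer passed, 3 passed newly and 0 changed sign. Il15 no longer passed between villus and crypt with an adjusted p under 0.01. Limits on size leave fewer genes able to pass. With a log2 limit of 1, or against changes up to 0.5, 3 members in place of 8 were called between villus and crypt (Btnl6, Clec2h and Clec2e), and 7 in place of 9 between the genotypes, without Il15 and Tnfrsf14. Of the 23 other listed genes, the same settings called 0 and 0 in place of 8 higher in villus, and 2 and 3 in place of 8 higher in WT, with 1 and 3 in place of 6 lower. For labelled-DKO villus below crypt they called 3 and 2 members in place of 5, where 1.66% and 0.902% of all genes were called. Of the other listed genes they called 1 and 1 below crypt in place of 3, and 1 and 0 above it in place of 6. The share of all genes above crypt was not computed under these rules. With an adjusted p under 0.01, 1 of the other listed genes was called below crypt and 5 above it. The standard error rebuilt from the shared fit called 8 members and 6 of the other listed genes below crypt. It called 8 of the other listed genes above crypt. Centring and a mean signal of at least 100 left each count within 1.5 times. That minimum removes Btnl2, H2-T3 and Tnfrsf14. Searching for CAAAGTCC with any first base, chosen after seeing the promoters, raised the matching promoters from 3 to 6. Settings for labelled-DKO villus against crypt other than centring and the rebuilt error, and those for the other listed genes, were added after seeing the data. Library depth is unknown, so what it limits at genes of low signal could not be computed.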

Other observations

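Once the first base of CAAAGTCC was left free, a choice made after the promoters were seen, 6 of the 8 promoters held a match. The added ones were Clec2h and Clec2e, each with 2 copies of TAAAGTCC on the gene's strand, and Tnfrsf14, with GGACTTTA 156 bases before the start. Clec2h and Clec2e have closely related promoters, so their matches are not independent of each other. The free form was found in 4.20% of all RefSeq promoters. It was found in 7.0% of the 1471 promoters of the other genes with a called excess in WT villus over labelled-DKO villus, and in 3.56% of the 1965 promoters of genes called lower. For CAAAGTCC itself these shares were 3.26% and 1.22%. They are shares of letters, with no test.

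The starts behind the promoters of Btnl4 and Btnl6 lie inside the RefSeq genes. In GRCm38.p6 the outer end of the gene was 1491 bp before the start at Btnl4 and 1424 bp before it at Btnl6, against 0 to 33 bp at Btnl1, Btnl2, Clec2h, Clec2e and H2-T3 and 543 bp at Tnfrsf14. The authors' promoter windows of Btnl4 and Btnl6 keep the same spacing to Btnl2 as these starts, 121115 and 162530 bp. The letters shown for both genes are therefore not those before the outermost annotated start, which were not analysed here.

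The authors' gene body windows were laid out differently on the strands. Among transcripts with both windows, the gene body window covered the whole promoter window for all 21190 on the minus strand and for none of 19858 on the plus strand. The most common layout reached 250 bp past the promoter window on the minus strand and began 49 bp after it on the plus strand. Of the 9 genes 6 lie on the minus strand, Btnl4, Btnl6, Clec2e, H2-T3, Il15 and Tnfrsf14. A ratio of promoter to gene body counts from these windows would thus not mean the same on both strands. Whether the comparison tables rest on these windows is not stated in them.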
